A study of Mus musculus with 95 samples.

Results

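The Cyp2 family comprises membrane-bound cytochrome P450 enzymes of the endoplasmic reticulum. Its members were taken as every gene of the deposited count table whose symbol is Cyp2 followed by a letter from a to j and a number, plus Cyp2r1, Cyp2s1, Cyp2u1, Cyp2w1, Cyp2t4 and Cyp2ab1. This gave 49 genes of 55401 in the table, all protein coding in GENCODE vM21, and 23 pseudogene entries with related names were left out. Poly(A) RNA was sequenced from liver, kidney, white adipose tissue (WAT) and brain cortex of C57BL/6J mice, in 95 libraries. The Stim group was the experimental group sampled after 3 months of a torpor-like state (TLS), the Con group was its control at the same time, and both were 205 days old. The T0 group was sampled at the start at 122 days of age, so Con against T0 spans both the study period and the mice's ageing, and the 2 cannot be told apart. The labels do not say how the torpor-like state was induced. Each group had 4 F and 4 M libraries per tissue, except Con in WAT with 4 F and 3 M. All animals were perfused with PBS, no allele or transgene is listed for any group, and all libraries carry 1 batch label. Each library bears an animal's name, and for Stim and Con the same name recurs across tissues, so the libraries of 1 tissue come from separate animals.

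Cytochrome P450 enzymes insert an oxygen atom into their substrates, using electrons passed on by P450 reductase and cytochrome b5 and a heme group as the catalytic centre. Cyp2 enzymes of the hepatocyte clear drugs and other foreign compounds and hydroxylate steroids, while several Cyp2c and Cyp2j enzymes turn arachidonic acid into epoxides and other signalling lipids in kidney, vessel and brain. Many mouse Cyp2 genes are known to differ between the sexes: in liver through the sex-specific pattern of growth hormone, and in kidney through androgens acting on the proximal tubule.

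Depth was 4031533 to 29269511 counts per liver library, 8217875 to 28337864 in kidney, 15881766 to 29089492 in WAT and 14299369 to 22962145 in cortex. Levels are given as CPM, counts relative to the library's total after TMM scaling for library composition, and as CPM per kilobase of exon (RPKM) where genes are set beside each other. All 10 hepatocyte markers were detected in liver, all 10 proximal tubule markers in kidney, all 8 adipocyte markers in WAT and all 6 neuron markers in cortex. Detection alone does not separate the tissues, and summed levels did. Hepatocyte markers summed to at least 54138 CPM in liver and at most 1140 elsewhere, and proximal tubule markers to at least 8462 in kidney and at most 1433 elsewhere. Adipocyte markers reached at least 11162 CPM in WAT and at most 256 elsewhere, and neuron markers at least 5602 in cortex and at most 56.5 elsewhere. The Stim male A5DA stood apart: the summed level of 7 tubular injury markers was 8548 CPM in its liver, against at most 331 CPM in any liver of Con or T0, and 9267 CPM in its kidney, against at most 1548 CPM in any kidney of Con or T0. Its liver was the lowest of the 12 M livers for 17 of the 35 members tested. The Stim female B4B9 was the lowest of the 12 F livers for 18 of the 35. In kidney, T0_4 carries the letter M and T0_5 the letter F, the reverse of the other tissues, and Y-linked transcripts matched the letter of every library.

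Most members sit in clusters on mouse build GRCm38. Chromosome 7 holds the 4 Cyp2a and 5 Cyp2b genes together with Cyp2f2, Cyp2g1, Cyp2s1 and Cyp2t4, between bases 25802475 and 27158668. Cyp2r1 (from base 114549682) and Cyp2e1 (from base 140763739) lie far from that cluster on the same chromosome. Chromosome 19 holds the 15 Cyp2c genes, chromosome 15 the 8 Cyp2d genes and chromosome 4 the 8 Cyp2j genes. Cyp2u1, Cyp2w1 and Cyp2ab1 lie alone on chromosomes 3, 5 and 16. Many neighbours are close copies. The transcripts of Cyp2a4 and Cyp2a5 were 98.2% identical, and those of Cyp2c40 and Cyp2c68 98.0%, Cyp2c69 and Cyp2c40 97.7%, and Cyp2c67 and Cyp2c40 97.6%. A copy over 95% identical exists for 12 of the 49 members, and no source used here says how reads matching several copies were counted, so values within these pairs carry that uncertainty. The next lines show the 150 bases before the RefSeq start (GRCm38.p6) for 4 Cyp2c genes and 2 Cyp2a genes, since several of the sex differences and the rise of Cyp2c40 and Cyp2c69 in Stim M liver concern these near-copies. Capitals mark the letters CAAAGTCCA, the core of a hepatocyte nuclear factor HNF4A motif, and the TATA box letters TATAAA.
Cyp2c69 (chr19:39886770-39886919, minus strand): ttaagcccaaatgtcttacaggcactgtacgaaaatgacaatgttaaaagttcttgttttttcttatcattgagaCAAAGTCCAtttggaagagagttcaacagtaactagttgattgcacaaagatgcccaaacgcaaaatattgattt
Cyp2c40 (chr19:39812815-39812964, minus strand): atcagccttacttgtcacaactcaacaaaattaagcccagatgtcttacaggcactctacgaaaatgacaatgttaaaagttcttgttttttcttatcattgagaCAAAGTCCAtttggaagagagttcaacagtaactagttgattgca
Cyp2c68 (chr19:39741102-39741251, minus strand): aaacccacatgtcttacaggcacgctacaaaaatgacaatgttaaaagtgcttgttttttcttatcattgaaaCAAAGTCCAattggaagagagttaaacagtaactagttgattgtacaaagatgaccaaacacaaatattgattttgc
Cyp2c67 (chr19:39649043-39649192, minus strand): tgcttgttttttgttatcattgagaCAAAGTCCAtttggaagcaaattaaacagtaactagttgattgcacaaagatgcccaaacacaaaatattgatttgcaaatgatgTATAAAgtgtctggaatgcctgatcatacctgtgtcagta
Cyp2a4 (chr7:26307042-26307191, plus strand): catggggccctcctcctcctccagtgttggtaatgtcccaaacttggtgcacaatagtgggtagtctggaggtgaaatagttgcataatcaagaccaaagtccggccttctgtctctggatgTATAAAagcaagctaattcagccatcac
Cyp2a5 (chr7:26835189-26835338, plus strand): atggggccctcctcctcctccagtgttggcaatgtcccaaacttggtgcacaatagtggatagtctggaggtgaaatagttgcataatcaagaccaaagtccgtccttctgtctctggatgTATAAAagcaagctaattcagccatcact

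The Cyp2a4 and Cyp2a5 windows were 96.7% identical over their alignment, and those of Cyp2c68 and Cyp2c69 88.2%. A RefSeq promoter was matched for 41 of the 49 members, and 3 motifs were searched on both strands in the 250 bases before the start. TATAAA occurred in 18 of 41 members, 43.9%, against 12.4% of all 32851 promoters of the table. CAAAGTCCA occurred in 6 of 41, 14.6%, against 0.384% of all, and its holders were the 4 Cyp2c genes shown above plus Cyp2c65 and Cyp2c70. Those 4 are near-copies that share the stretch around these letters, so their matches are not separate occurrences. TTCNNNGAA, the letters bound by STAT factors, occurred in Cyp2j11 and Cyp2j12 only among the members, 4.88% against 7.02% of all. In Cyp2c40 the CAAAGTCCA letters lay 45 to 37 bases before the RefSeq start. They lay 75 to 67 bases before it in Cyp2c69, 77 to 69 in Cyp2c68 and 125 to 117 in Cyp2c67. In Cyp2c67 a TATAAA followed closer to that start. GENCODE vM21 has the same start for Cyp2c40 but others for Cyp2c69 (39886799), Cyp2c68 (39741054) and Cyp2c67 (39649051). The distances thus depend on the annotation and do not show a different layout between these genes.

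Members made up 0.473% to 2.40% of all liver counts with a median of 1.72%, and the lowest liver was that of A5DA. In kidney the share was 0.185% to 0.275% in F and 0.298% to 0.735% in M, without overlap. In WAT it ran from 0.0828% to 1.10% with a median of 0.287%, so that the highest WAT libraries exceeded the lowest livers. In cortex it stayed between 0.00821% and 0.0122%. A filter on low counts, set on the treatment groups, was passed by 35 members in liver, 22 in kidney, 11 in WAT and 6 in cortex, and by 42 in at least 1 tissue. Cyp2d22, Cyp2j6, Cyp2j9 and Cyp2u1 passed in all 4 tissues. Cyp2b19, Cyp2b23, Cyp2c65, Cyp2c66, Cyp2d34, Cyp2t4 and Cyp2w1 passed in none.

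**Figure D1:**
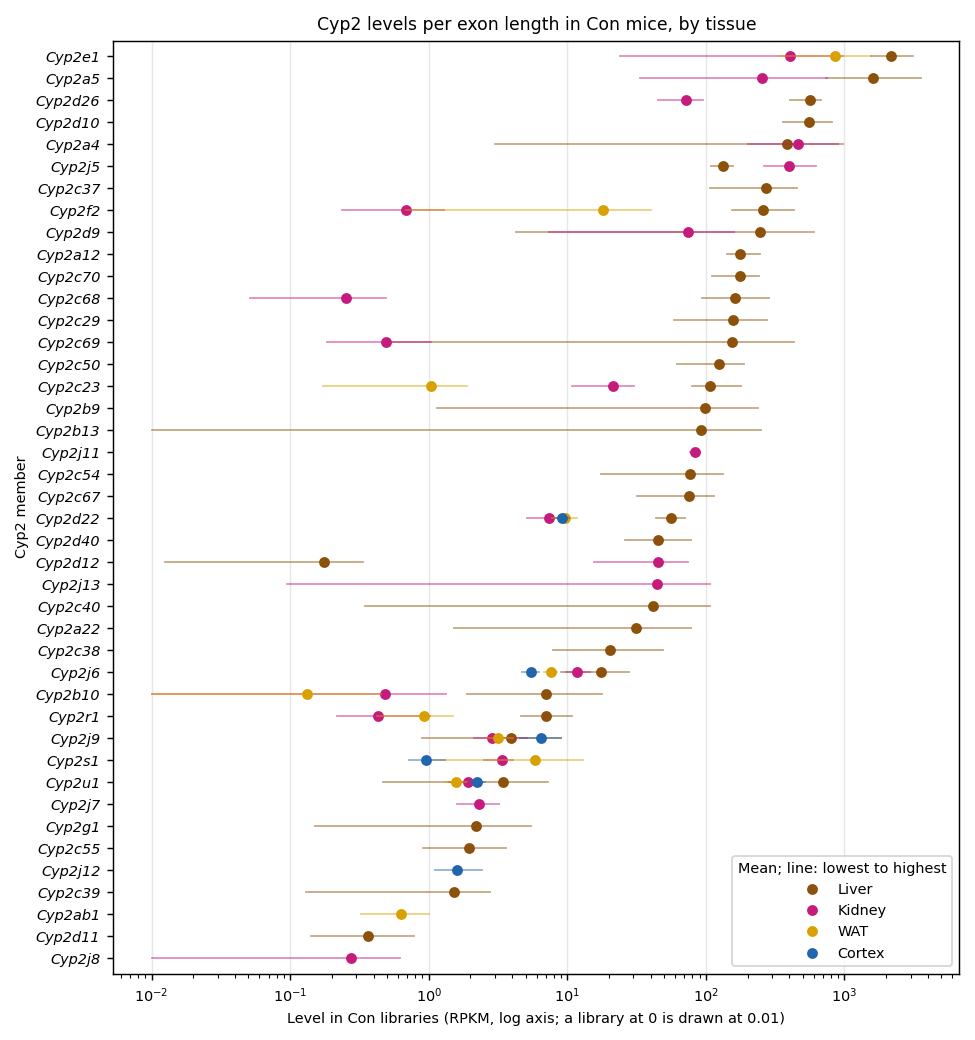
Level of Cyp2 members in the Con libraries of liver, kidney, WAT and cortex, as CPM per kilobase of exon on a log axis. A member is drawn only in the tissues where it passed the filter. The mean is a dot and a line runs from the lowest to the highest library, with a library at 0 drawn at 0.01. Cyp2e1 leads in liver and in WAT, with means of 2151 and 849, while the highest cortex mean is 9.12.

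In Con liver, per length of transcript, Cyp2e1 stood first at 2151 ± 571 RPKM (SD, n = 8). This enzyme oxidises ethanol, acetone and other small molecules. Cyp2a5, a coumarin hydroxylase, followed at 1614 ± 1092 and did not separate from Cyp2e1 beyond the spread. Cyp2d26 at 567 ± 94.1 and Cyp2d10 at 560 ± 148 were next and lay within each other's spread, as did Cyp2a4 (386 ± 400), Cyp2c37 (274 ± 108), Cyp2f2 (257 ± 103) and Cyp2d9 (245 ± 269). The very wide spreads of Cyp2a4 and Cyp2d9 come with the sex differences given further on. The 14 members below the liver filter were Cyp2ab1, Cyp2b19, Cyp2b23, Cyp2c65, Cyp2c66, Cyp2d34, Cyp2j7, Cyp2j8, Cyp2j11, Cyp2j12, Cyp2j13, Cyp2s1, Cyp2t4 and Cyp2w1, of which Cyp2s1 reached the highest level, 2.27 CPM, and 5 had no count in any liver.

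In Con kidney the order changed. Cyp2a4, a testosterone hydroxylase, was first at 465 ± 275 RPKM, with Cyp2e1 at 404 ± 435 and Cyp2j5, an arachidonic acid epoxygenase, at 400 ± 142, and the spreads of these 3 overlapped. Cyp2a5 stood at 253 ± 297, Cyp2j11 at 83.8 ± 4.81 and Cyp2d9 at 74.4 ± 69.8. The kidney set differed from the liver set mainly by subfamily: Cyp2j7, Cyp2j8, Cyp2j11, Cyp2j13 and Cyp2s1 passed the filter in kidney and not in liver. Another 18 members passed in liver and not in kidney, among them 10 Cyp2c genes.

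WAT and cortex held few members. In Con WAT Cyp2e1 reached 849 ± 408 RPKM (SD, n = 7) and made up 81.8% to 97.6% of the family's counts over the 23 WAT libraries. Cyp2f2 followed at 18.2 ± 15.8, Cyp2d22 at 9.58 ± 1.17, Cyp2j6 at 7.57 ± 0.640, Cyp2s1 at 5.88 ± 4.41 and Cyp2j9 at 3.18 ± 0.562. Cyp2ab1 passed the filter in WAT alone. In Con cortex the 6 members that passed were Cyp2d22 at 9.12 ± 0.644 RPKM, Cyp2j9 at 6.42 ± 1.46, Cyp2j6 at 5.44 ± 0.620, Cyp2u1 at 2.23 ± 0.182, Cyp2j12 at 1.60 ± 0.392 and Cyp2s1 at 0.961 ± 0.189 (SD, n = 8). Cyp2d22 stood above Cyp2j9 by more than either spread, and Cyp2j9 and Cyp2j6 lay within theirs. The other 43 members fell below the cortex filter, and 20 of them had no count in any cortex library.

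Stim against Con sets the mice after the torpor-like state beside their controls at equal age. The labels do not say what the Con mice received, so the state and the procedure behind it cannot be told apart. In liver 2 members fell, Cyp2r1 and Cyp2a22, and 0 rose. That is 2 of 35, or 5.71%, where 1.95% of all 13604 genes tested were called, a member being called when edgeR's quasi-likelihood test gave a Benjamini-Hochberg adjusted p under 0.05 over all genes of the tissue. The median log2 difference over the 35 members that passed was -0.13, against 0.08 over all genes, with 14 members higher and 21 lower. In bulk tissue, fewer cells of a type and less RNA per cell cannot be told apart, here and in the other comparisons.

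Cyp2r1 (ENSMUSG00000030670.16, chr7:114549682-114562972, minus strand) encodes the vitamin D hydroxylase of liver, which makes the circulating form of the vitamin. Its Stim F livers held 3.80, 11.7, 2.24 and 4.80 CPM and its Stim M livers 11.6, 7.14, 5.56 and 6.93. Its Con F livers held 15.6, 15.3, 11.2 and 9.79 and its Con M livers 20.9, 12, 22.8 and 11.2. All but 2 Stim livers, B23B and 47BE, lay below every Con liver. The means were 6.72 ± 3.43 against 14.9 ± 4.80 CPM (SD, n = 8 each), a log2 difference of -1.14 (SE 0.26, edgeR adjusted p = 0.023), 2.20-fold lower in Stim. The T0 livers ran from 6.98 to 17.5 CPM with a median of 11.3, and Stim against T0 gave -0.75 (edgeR adjusted p = 0.16), not called. Left out one at a time, 13 of 16 Stim and Con libraries kept the call, with log2 differences from -1.42 to -1.01, while edgeR's adjusted p was 0.059 without 9916, 0.062 without A367 and 0.0504 without E46E. Fitted on the Stim and Con livers only, edgeR's adjusted p was 0.091, over a range of 0.0030 to 0.49 for 10 other settings.

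Cyp2a22 (ENSMUSG00000091867.2, chr7:26931631-26939384, minus strand) is a Cyp2a gene that was high in F liver. Its Stim F livers held 197, 101, 47.2 and 81.1 CPM and its Con F livers 190, 213, 153 and 271. The Stim M livers held 1.28, 1.55, 5.07 and 3.44 CPM and the Con M livers 6.87, 5.27, 11.4 and 8.73, all above the Stim M livers. Over both sexes the means were 54.6 ± 69.4 and 107 ± 111 CPM, and the log2 difference with sex in the model was -1.24 (SE 0.33, edgeR adjusted p = 0.047). The call was narrow: it was lost without any of 12 of the 16 libraries, A5DA (adjusted p = 0.058) and B4B9 (0.091) among them, and held without A123, B03E, B23B or DDF3. Among 10 other settings 4 kept it, with edgeR or DESeq2 adjusted p from 0.0089 to 0.72, and with no sex covariate it was 0.72. Cyp2a22 shares 96.2% of its transcript sequence with Cyp2a12, whose difference was 0.05 (adjusted p = 0.93), and overlaps the pseudogene Cyp2a21-ps.

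The most abundant enzymes were not called. Cyp2e1 ran from 2374 to 6789 CPM in Stim liver with a median of 6344, from 3362 to 6718 with a median of 4126 in Con, and from 2438 to 6126 with a median of 5178 in T0. The Stim minus Con difference of Cyp2e1 was 0.18 (edgeR adjusted p = 0.74, 95% interval -0.31 to 0.67), and the groups overlapped. Cyp2a5 differed by -0.94 (adjusted p = 0.28), Cyp2d26 by 0.14 (0.73) and Cyp2d10 by 0.01 (0.98), all by edgeR. Cyp2c39 at -1.28 (edgeR adjusted p = 0.072), Cyp2j5 at -0.58 (0.12) and Cyp2c67 at -0.73 (0.12) came nearest to the threshold. Without A5DA 1 member was called, Cyp2r1 at -1.12 (edgeR adjusted p = 0.024). Without B4B9 it was again Cyp2r1 alone, at -1.01 (0.046), and without B23B the called members were Cyp2a22, Cyp2c67, Cyp2j5 and Cyp2r1.

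**Figure D2:**
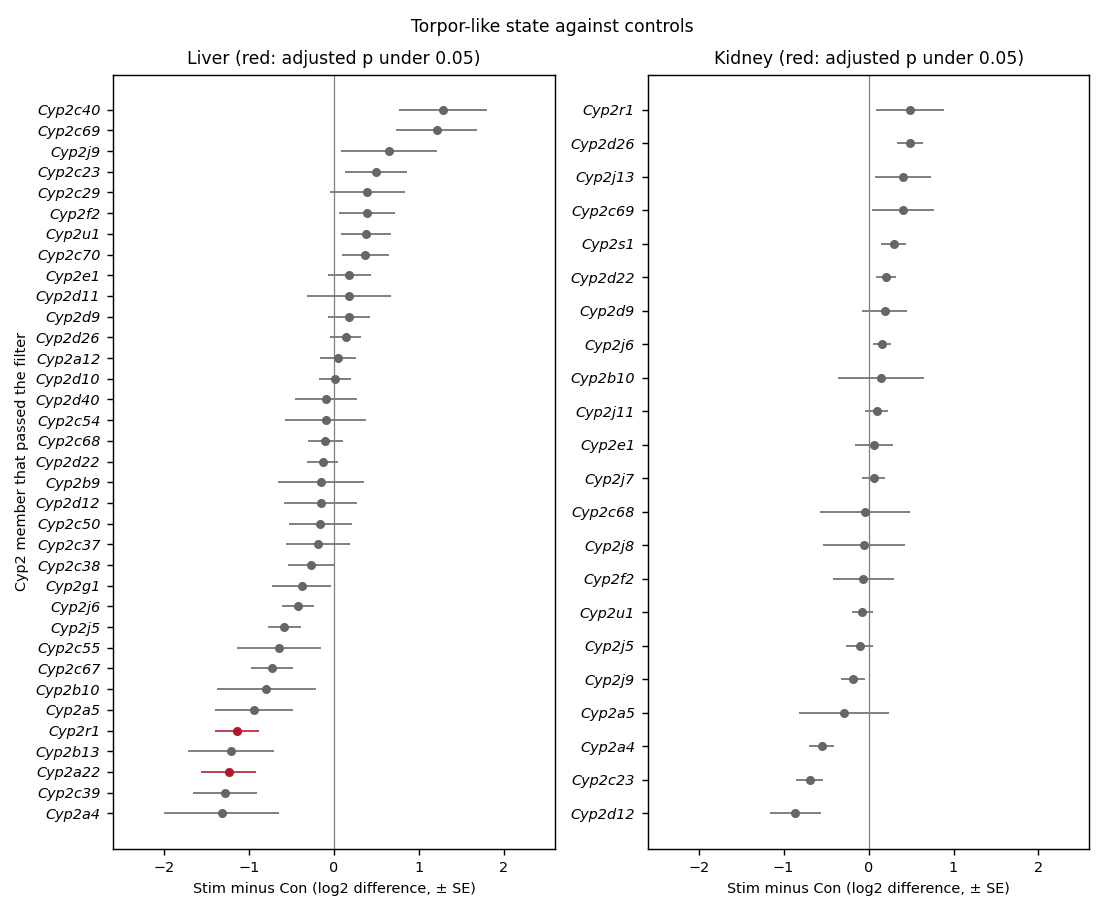
Stim minus Con as a log2 difference with its SE for each member tested in liver and in kidney, with called members in red. Cyp2r1 at -1.14 and Cyp2a22 at -1.24 in liver are the called members, and no kidney member is red.

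Marker levels of liver cell types varied among these libraries. The summed level of the 10 hepatocyte markers ran from 54138 to 118012 CPM in Stim, from 84323 to 158666 in Con and from 69226 to 104047 in T0 livers. The 10 pericentral markers ran from 1449 to 4159, 1929 to 3492 and 1681 to 4350 CPM, and the 10 periportal markers from 5357 to 12136, 8911 to 12879 and 8280 to 14540. The 7 macrophage markers ran from 57.0 to 864, 69.9 to 330 and 96.4 to 183 CPM, highest in A5DA. Every gene of these lists was detected. Their part in the liver results was not tested.

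Against T0, 1 member fell in Stim and 0 changed in Con. Con against T0 called 0 of 35 members by edgeR, where 0.529% of all genes were called, and DESeq2 called 0. By edgeR 6 members and 2057 of all 13604 genes had an unadjusted p under 0.05. Stim against T0 called 1 of 35, where 1.34% of all genes were called. That member was Cyp2j5, which turns arachidonic acid into epoxides. Its level ran from 98.7 to 318 CPM with a median of 199 in Stim, from 255 to 368 with a median of 317 in Con, and from 264 to 450 with a median of 351 in T0. The Stim and T0 ranges overlapped between 264 and 318 CPM. The Stim mean was 210 ± 75.5 and the T0 mean 359 ± 68.5 CPM, a log2 difference of -0.78 (SE 0.20, edgeR adjusted p = 0.044). The call held without 3 of the 16 libraries and was lost without each of the other 13, with adjusted p = 0.074 without A5DA and 0.066 without B4B9. Both Stim comparisons use the same Stim livers, and Con and T0 are shared with Con against T0.

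**Figure D3:**
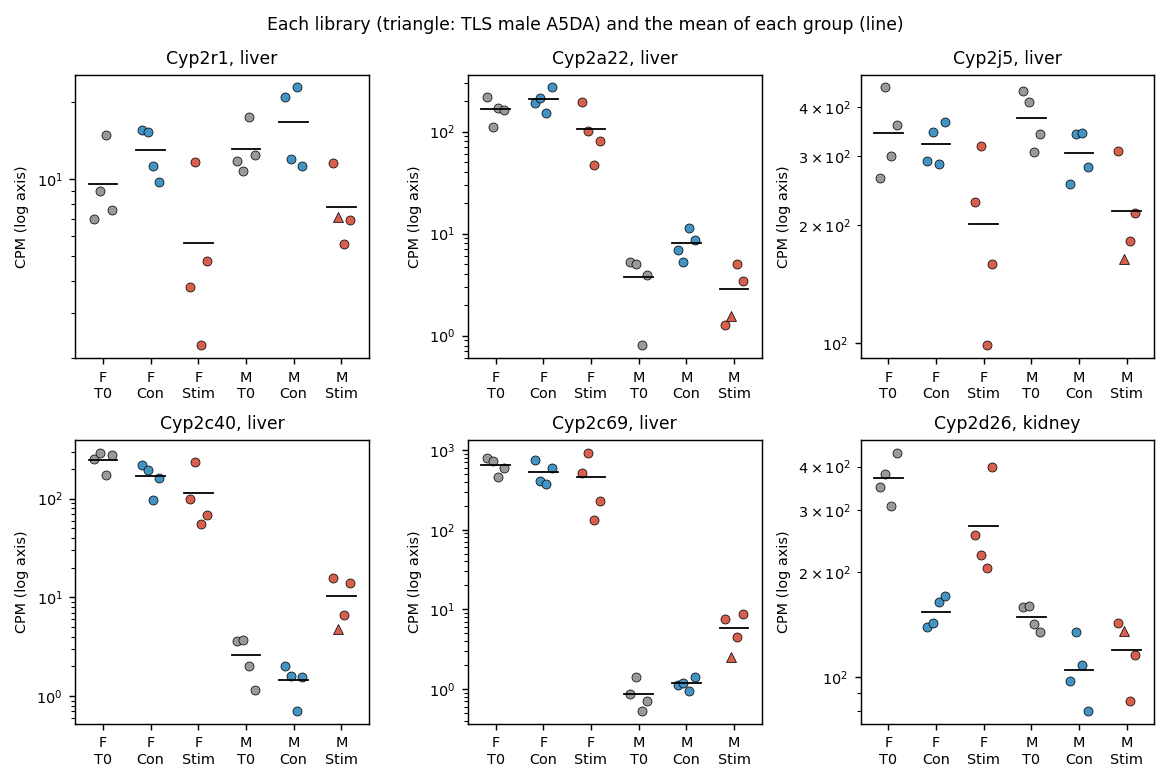
CPM per library on a log axis for Cyp2r1, Cyp2a22, Cyp2j5, Cyp2c40 and Cyp2c69 in liver and Cyp2d26 in kidney, by treatment and sex letter, with a line at each mean and a triangle for A5DA. The Stim M livers of Cyp2c40 lie between 4.79 and 15.6 CPM, above the Con M livers at 0.709 to 2.0.

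Within M livers, Cyp2c40 and Cyp2c69 rose in Stim, from very low levels. Both belong to the block of near-copies shown above, and Cyp2c40 makes a hydroxylated product of arachidonic acid. Cyp2c40 (chr19:39767071-39812814) held 15.6, 4.79, 6.58 and 13.9 CPM in Stim M and 2.0, 1.59, 0.709 and 1.56 in Con M livers. Cyp2c69 (chr19:39842814-39886799) held 7.49, 2.55, 4.53 and 8.81 CPM in Stim M and 1.12, 1.21, 0.945 and 1.43 in Con M livers. Neither pair of groups overlapped, and the T0 M livers lay at 1.15 to 3.73 and 0.534 to 1.40 CPM. In a model with 1 mean per treatment and sex, the M log2 difference was 2.80 for Cyp2c40 (SE 0.49, edgeR adjusted p = 0.0076) and 2.30 for Cyp2c69 (SE 0.49, adjusted p = 0.034). These were 2 of 35 members called in M, where 0.39% of all genes were called.

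F livers held far more of both transcripts. Cyp2c40 in Stim F livers was 98.5, 236, 55.8 and 68.0 CPM and in Con F livers 217, 197, 96.8 and 163. Cyp2c69 was 522, 926, 132 and 232 CPM in Stim F and 745, 403, 374 and 590 in Con F. These groups overlapped, with F differences of -0.55 (edgeR adjusted p = 0.79) and -0.22 (0.93). In F 0 of 35 members were called by edgeR, where 0.147% of all genes were called. There 5 members and 1109 of all 13604 genes had an unadjusted p under 0.05. The test of the difference itself, M minus F, gave 3.35 for Cyp2c40 (SE 0.64, edgeR adjusted p = 0.11) and 2.52 for Cyp2c69 (SE 0.65, 0.63). It called 0 of 35 members and 0.00735% of all genes, with 5 members and 840 of all 13604 genes at an unadjusted p under 0.05. DESeq2 called Cyp2c40, with an adjusted p of 0.00094, and edgeR called it without A5DA (0.030) and without B23B (0.010), over a range of 1.9e-09 to 0.43 for all settings and libraries left out. Since Cyp2c40, Cyp2c67, Cyp2c68 and Cyp2c69 are near-copies, which of them gave these reads is uncertain.

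Sex separated the family in liver more than treatment did, in number of members called. Between M and F, 17 of 35 members were called, 48.6% against 6.4% of all genes, 5 higher in M and 12 higher in F. For 10 of the 17 the M and F ranges did not overlap over 12 libraries each, which was not counted over all genes. The steroid hydroxylase Cyp2d9 ran from 425 to 1802 CPM in M with a median of 1361 and from 11.4 to 51.2 with a median of 23.1 in F. Its log2 difference was 5.66 (SE 0.25, edgeR adjusted p = 1.9e-15). Cyp2u1, a fatty acid hydroxylase, ran from 18.1 to 66.7 CPM in M and from 1.94 to 11.4 in F, a difference of 2.85 (SE 0.25, adjusted p = 3.0e-09 by edgeR). An antisense gene overlaps Cyp2u1, and same-strand pseudogene models overlap Cyp2d9, so reads of these cannot be separated from them here. The other 3 higher in M were Cyp2c67 at 1.16, Cyp2d11 at 1.42 and Cyp2j6 at 0.53, whose ranges overlapped between the sexes.

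The 12 members higher in F were all Cyp2a, Cyp2b, Cyp2c or Cyp2g genes. Cyp2b13 ran from 37.6 to 470 CPM in F livers, while in M livers it never passed 0.532 CPM or 9 counts and was at 0 in 6 of 12. Its fitted log2 difference was -10.93 (SE 0.52, edgeR adjusted p = 7.3e-15) and depends on the prior count at such low levels. Cyp2b9 ran from 214 to 459 CPM in F and from 0 to 6.69 in M. Cyp2a4 ran from 723 to 2354 CPM in F with a median of 1321, and from 1.15 to 148 with a median of 7.86 in M, a difference of -6.55 (SE 0.68, edgeR adjusted p = 1.0e-07). Its near-copy Cyp2a5 differed by 0.26 and was not called (edgeR adjusted p = 0.80). The 150 bases before their starts, shown above, are nearly the same, and an antisense gene model overlaps Cyp2a4. Cyp2c69 at -8.16, Cyp2c40 at -5.64, Cyp2a22 at -5.12, Cyp2g1 at -2.40 and Cyp2c38 at -1.81 also had M and F ranges that did not overlap. Cyp2c39 (-2.94), Cyp2b10 (-2.80), Cyp2c68 (-1.39) and Cyp2c37 (-1.27) completed the list.

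Among the block of near-copies with the CAAAGTCCA letters, Cyp2c40, Cyp2c68 and Cyp2c69 were higher in F and Cyp2c67 was higher in M. Cyp2c67 was at 156 ± 38.1 CPM in M and 73.1 ± 30.4 in F livers (SD, n = 12 each), and Cyp2c68 at 154 ± 34.0 in M and 403 ± 122 in F. The sex difference was present in every treatment group: 14 members were called between M and F in Stim (1.73% of all genes), 11 in Con (2.18%) and 11 in T0 (1.76%). The Cyp2c40 difference was -3.49 in Stim, -6.84 in Con and -6.57 in T0, and that of Cyp2c69 -6.28, -8.80 and -9.53. For Cyp2a4 the order was different, with -7.21 in Stim, -4.54 in Con and -7.72 in T0. Its Con M livers held 148 CPM in A367 and 56.6 in 9BA4, but 5.25 in 5A66 and 12.6 in E329. A367 and 9BA4 also held the most of its near-copy Cyp2a5, 7389 and 6456 CPM, against 2137 in 5A66 and 2437 in E329. How reads matching both copies were counted is not known. Apart from the M minus F test of the Stim effect given above, the M minus F differences of the treatment groups were not tested against each other.

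**Figure D4:**
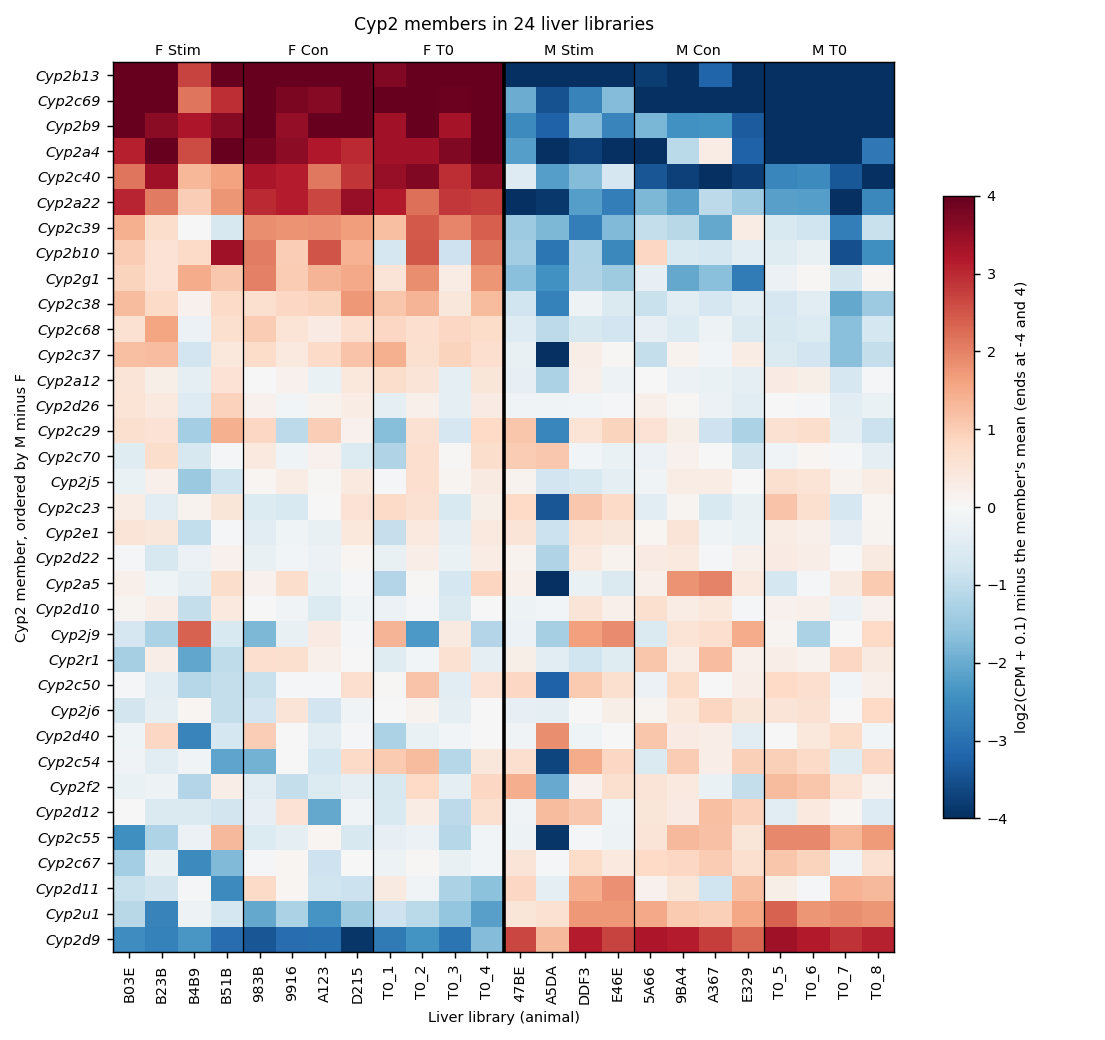
Heat map of the 35 members tested over the 24 liver libraries, as log2(CPM + 0.1) minus the member's mean, with the colour scale ending at -4 and 4 and F libraries left of M libraries. Cyp2b13, Cyp2c69 and Cyp2a4 are high across F libraries and Cyp2d9 and Cyp2u1 across M libraries, in Stim, Con and T0 alike.

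In kidney, Stim against Con called 0 of 22 members by edgeR and 0.231% of all 16005 genes tested. By edgeR 4 members and 1353 of all genes had an unadjusted p under 0.05. DESeq2 called 2 members, Cyp2a4 and Cyp2c23, and its share over all genes was not compared. The median member difference was 0.06, against 0.01 over all genes. Cyp2c23, an arachidonic acid epoxygenase, was at 30.7 ± 17.0 CPM in Stim and 46.1 ± 17.1 in Con (SD, n = 8 each), a difference of -0.69 (SE 0.16, edgeR adjusted p = 0.061). Cyp2a4 in M kidneys was at 717, 523, 836 and 716 CPM in Stim and at 1046, 1550, 1321 and 981 in Con. The M groups of Cyp2a4 did not overlap, while in F the Stim kidneys ran from 224 to 365 CPM and the Con kidneys from 352 to 465. Within M, 4 of 22 members had groups that did not overlap, which was not counted over all genes. There edgeR called 0 of 22 members and 5 of all 16005 genes, and within F 0 members and 24 genes. Fitted on M kidneys alone, Cyp2a4 differed by -0.81 (edgeR adjusted p = 0.92). Over both sexes Cyp2a4 differed by -0.55 (SE 0.14, edgeR adjusted p = 0.14). The difference of the Stim effect between the sexes called 0 of 22 members by edgeR and by DESeq2, and by edgeR 0% of all genes. By edgeR 4 members and 1326 of all 16005 genes had an unadjusted p under 0.05.

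The 10 proximal tubule markers summed to 8462 to 99923 CPM in Stim, 18386 to 81330 in Con and 22040 to 76282 in T0 kidneys, and all 10 were detected. The kidney of A5DA was the lowest of the 12 M kidneys for 10 of 22 members. Their part in the kidney values was not tested. The Stim effect itself was compared between liver and kidney in 1 fit of the 32 Stim and Con libraries of both tissues. Of the 17 members tested in both tissues 0 were called by edgeR, where 0.0612% of all genes were. Over the 39 members of that fit 6 had an unadjusted p under 0.05, which was not compared with all genes, and limma called 0. The members outside the 17 were below the low-count filter in liver or in kidney. The smallest p among the 17 was that of Cyp2r1, at -1.58 (SE 0.50, edgeR adjusted p = 0.20).

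In Con against T0, 1 member fell, Cyp2d26 (ENSMUSG00000022445.7, chr15:82790101-82794294, minus strand), a Cyp2d gene that was higher in F kidney. Its T0 F kidneys held 351, 381, 309 and 438 CPM and its Con F kidneys 139, 143, 164 and 171. Its T0 M kidneys held 159, 160, 142 and 135 CPM and its Con M kidneys 97.5, 134, 109 and 80.2. In both sexes every Con kidney lay below every T0 kidney. The log2 difference was -0.87 (SE 0.16, edgeR adjusted p = 0.012), 1.83-fold lower in Con, and it was called without any single library but not when sex was left out of the model (adjusted p = 0.30). Stim kidneys held 255, 224, 205 and 399 CPM in F and 143, 135, 85.6 and 116 in M. Stim minus Con was 0.49 (edgeR adjusted p = 0.30) and Stim minus T0 -0.39 (0.24) for Cyp2d26, neither called. This was 1 of 22 members, where 0.312% of all genes were called. Stim against T0 called 0 of 22 by edgeR and DESeq2, where edgeR called 0.681% of all genes. By edgeR 5 members and 2420 of all 16005 genes had an unadjusted p under 0.05.

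Kidney differed between the sexes across the transcriptome, and the family with it: 16 of 22 members were called between M and F, 72.7% against 46.8% of all genes, 10 higher in M and 6 higher in F. Cyp2j13 (chr4:96027534-96077546) ran from 85.6 to 612 CPM in M kidneys and from 0.441 to 3.60 in F, a difference of 8.24 (SE 0.33, edgeR adjusted p = 5.5e-16). Its lowest M kidney was that of A5DA, and the next lowest held 274 CPM. Cyp2e1 ran from 901 to 2686 CPM in M and from 37.0 to 125 in F, a difference of 4.52 (SE 0.21, adjusted p = 5.7e-15 by edgeR). Cyp2d9 ran from 212 to 425 CPM in M and from 8.87 to 75.2 in F, a difference of 3.15 (SE 0.24, edgeR adjusted p = 9.6e-11). Cyp2a4 ran from 523 to 1550 CPM in M and from 224 to 465 in F, a difference of 1.39 (SE 0.12, edgeR adjusted p = 7.4e-10). Cyp2b10, the classic target of the xenobiotic receptor CAR, had 0.136 to 3.22 CPM in M and was at 0 in 10 of 12 F kidneys, so no fold is given. The M and F ranges of these 5 did not overlap, which was not counted over all genes.

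The remaining members higher in M kidney were Cyp2a5 at 1.59, Cyp2d12 at 0.92, Cyp2f2 at 0.80, Cyp2j5 at 0.78 and Cyp2j9 at 0.60. Higher in F were Cyp2c23 at -1.13, Cyp2d26 at -1.01, Cyp2d22 at -0.65, Cyp2j7 at -0.50, Cyp2s1 at -0.46 and Cyp2u1 at -0.34. Cyp2j5 averaged 1188 CPM in M and 691 in F, and Cyp2d26 125 in M and 265 in F, with overlapping ranges. The arachidonic acid epoxygenases thus went in both directions, Cyp2j5 being higher in M and Cyp2c23 in F. Between M and F, 12 of 22 members were called in Stim (23% of all genes), 12 in Con (28.5%) and 10 in T0 (9.9%).

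For each of the 17 members tested in both, the M minus F difference of liver was set against that of kidney in the joint fit. Of these, 7 were called, where 6.24% of all genes in that fit were called. Over all 39 members of the fit it was 9. The members outside the 17 were below the low-count filter in liver or in kidney. Their difference between the tissues thus rests on counts at or near 0 in a tissue and is not read as a result. Cyp2a4 was higher in F in liver and higher in M in kidney, and liver minus kidney was -7.20 (SE 0.80, edgeR adjusted p = 1.3e-07). Cyp2b10 went the same 2 ways. Cyp2u1 did the opposite, being higher in M liver and in F kidney, with a difference of 3.03 (SE 0.35, edgeR adjusted p = 2.4e-07). Cyp2d9 was higher in M in both, by more in liver, at 2.80 (SE 0.39, edgeR adjusted p = 7.3e-06). Cyp2e1, not called between the sexes in liver at 0.15, was far higher in M kidney, at -4.59 (SE 0.38, adjusted p = 1.4e-10 by edgeR). Cyp2c69 (-7.85) and Cyp2d22 (0.83) were the others, where Cyp2b10 was at or near 0 CPM in every F kidney and Cyp2c69 was at most 2.09 CPM in every kidney. With the animal as a block the Cyp2d22 difference was 0.79 and was not called (edgeR adjusted p = 0.083). These tests use the Stim and Con libraries only, and this comparison was added after values were seen.

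**Figure D5:**
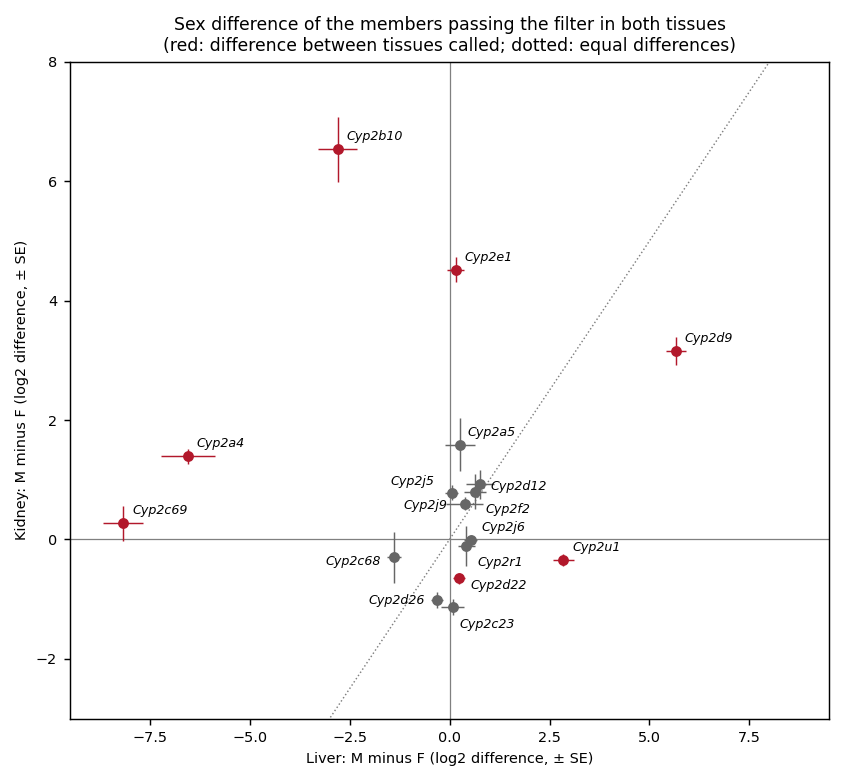
M minus F log2 difference in liver against that in kidney, with SE bars, for the 17 members tested in both tissues; members in red had a called difference between the tissues. Cyp2a4 lies at -6.55 in liver and 1.39 in kidney, Cyp2u1 at 2.85 and -0.34.

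In WAT Stim against Con called 0 of 11 members by edgeR, where 0.00596% of all 16784 genes were called. By edgeR 4 members and 1857 of all genes had an unadjusted p under 0.05. DESeq2 called 2. Cyp2e1, nearly all of the family's RNA there, ran from 2338 to 11109 CPM in Stim with a median of 3448, from 731 to 3352 with a median of 1770 in Con, and from 781 to 4602 with a median of 2737 in T0. The ranges overlapped, and B4B9 and B51B were the 2 highest at 11109 and 9845 CPM. Stim minus Con was 1.51 (SE 0.41, edgeR adjusted p = 0.20) and Stim minus T0 0.93 (SE 0.39, 0.30). For Stim minus Con of Cyp2e1, DESeq2 gave an adjusted p of 0.013, and 9 other settings 0.16 to 0.61, beside the fits without libraries given with the tissue markers. Cyp2b10 was at 1.41 ± 1.45 CPM in Stim (SD, n = 8), 0.277 ± 0.369 in Con (n = 7) and 0.293 ± 0.423 in T0 (n = 8), with edgeR adjusted p = 0.17 against Con and 0.058 against T0. The levels of Cyp2b10 are close to the detection limit. Con against T0 and Stim against T0 each called 0 of 11 by edgeR, where 0.161% and 0.226% of all genes were called. By edgeR 2 and 5 members had an unadjusted p under 0.05, and 1953 and 2196 of all 16784 genes. DESeq2 called 1 and 2 members, again without a comparison to its share over all genes.

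Markers of other tissues were high in some WAT libraries. The 10 proximal tubule markers summed to 29.1 to 321 CPM in Stim, 14.6 to 63.6 in Con and 20.3 to 137 in T0, highest in the Stim libraries A5DA, B4B9, B23B and B51B. The 8 epididymis and testis markers reached 26917 CPM in the T0 male T0_6 and 2891 CPM in Stim, against at most 0.247 in Con. In Stim, Con and T0, the 6 skeletal muscle markers reached 5115, 294 and 138 CPM. The 8 markers of mammary and skin epithelium reached 228, 436 and 964 CPM, and the 7 lymphocyte markers 2684, 1711 and 726. No libraries were left out by these 3 lists. The 8 adipocyte markers ran from 11162 to 36899, 21931 to 40346 and 14806 to 32333 CPM. All genes of these lists were detected. In fits chosen after values were seen, without the 3 libraries highest in epididymis markers, 47BE, E46E and T0_6, Cyp2e1 was at 1.61 in Stim minus Con (edgeR adjusted p = 0.14) and 0.88 in Stim minus T0 (0.30), and Cyp2b10 at 2.50 (0.13) and 2.27 (0.075). Leaving out the 4 libraries highest in proximal tubule markers as well removed 6 of the 8 Stim libraries, among them the 2 highest for Cyp2e1, and kept B03E and DDF3. On those 2 Stim libraries Cyp2e1 was at 0.67 in Stim minus Con (edgeR adjusted p = 0.83) and -0.12 in Stim minus T0 (0.96), and Cyp2b10 at 1.94 (0.83) and 1.66 (0.51). Cyp2j5, high in kidney, was at 8.55 CPM in the WAT of A5DA, 5.91 in B4B9, 4.21 in B23B and 0 in B51B. The F kidney levels of Cyp2e1 given above were far below those of the B4B9 and B51B WAT. The part of the marker levels in the Cyp2 values was not tested otherwise.

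Between M and F, 5 of 11 members were called in WAT, 45.5% against 11.8% of all genes. Cyp2s1, a P450 of epithelia, ran from 24.8 to 70.7 CPM in F and from 5.21 to 16.5 in M, without overlap, a difference of -1.90 (SE 0.21, edgeR adjusted p = 2.2e-06). The epithelial markers of WAT were not compared between the sexes, and their part in this difference was not tested. Cyp2c23 was also higher in F, at 2.81 against 0.600 CPM (edgeR adjusted p = 0.00019), and Cyp2b10 higher in M, at 1.24 against 0.158 (7.1e-05). Cyp2u1 at -0.43 (edgeR adjusted p = 0.040) and Cyp2r1 at 0.80 (0.046) were called with overlapping ranges, and both were lost without the 3 libraries highest in epididymis markers. The difference of the Stim effect between the sexes called 0 members by edgeR, where 0% of all genes were called. For it 1 member and 2563 of all 16784 genes had an unadjusted p under 0.05.

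In cortex 1 member rose in Stim against Con, Cyp2j9, 1 of 6 or 16.7%, where 5.41% of all 16609 genes were called. Cyp2j9 hydroxylates arachidonic acid and is known from brain. It ran from 24.9 to 40.7 CPM in Stim with a median of 27.5, from 15.2 to 30.0 with a median of 20.0 in Con, and from 14.7 to 21.8 in T0. Stim and Con overlapped, and Stim and T0 did not. Stim minus Con was 0.42 (SE 0.12, edgeR adjusted p = 0.032). It was 0.74 in M (edgeR adjusted p = 0.00086) and 0.13 in F (0.79), and M minus F was 0.61 (SE 0.20, edgeR adjusted p = 0.066), not called. The call over both sexes was lost without any of 7 of the 16 libraries, A5DA (0.071), 5A66 (0.083), 983B (0.055), 9BA4 (0.067), A367 (0.061), E329 (0.084) and E46E (0.056).

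Against T0, 4 of 6 members rose in Stim, 66.7%, where 35.7% of all genes were called. Cyp2j6 was at 22.9 ± 2.82 CPM in Stim and 17.1 ± 1.20 in T0 (SD, n = 8 each), a difference of 0.42 (edgeR adjusted p = 5.5e-05). Cyp2j9 differed by 0.60 (edgeR adjusted p = 0.00023), Cyp2d22 by 0.32 (0.0015) and Cyp2j12 by 0.62 (0.012). In Con against T0 2 of 6 rose, 33.3% where 21.2% of all genes were called: Cyp2d22 by 0.23 (edgeR adjusted p = 0.031) and Cyp2j6 by 0.20 (0.046). The Cyp2d22 call was kept without 10 of 16 libraries and the Cyp2j6 call without 5 of 16. Libraries are shared among these comparisons. Between M and F 0 of 6 were called by edgeR and by DESeq2, where edgeR called 0.126% of all genes. By edgeR 2 members and 1861 of all 16609 genes had an unadjusted p under 0.05.

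Nuclear transcripts and glial markers moved with the cortex groups. The nuclear transcripts Malat1, Neat1 and Meg3 made up 0.209% to 0.318% of counts in Stim, 0.214% to 0.681% in Con and 0.452% to 0.603% in T0. With that share in the model, an alternative that for the comparisons with T0 was chosen after values were seen, 0 of the cortex members kept a treatment call over both sexes. The Stim and T0 ranges of the nuclear share did not overlap, so this fit cannot tell it from treatment in Stim minus T0. How many of all genes lost their call was not compared, so the loss cannot be read as particular to the members. The differences of Cyp2j9 shrank, to 0.11 in Stim minus Con (edgeR adjusted p = 0.83) and 0.14 in Stim minus T0 (0.58). Those of Cyp2j6 stayed near their size, at 0.36 in Stim minus T0 (edgeR adjusted p = 0.052) and 0.18 in Con minus T0 (0.092), as did that of Cyp2d22 in Con minus T0 at 0.18 (0.090). In Stim minus T0, Cyp2d22 was at 0.18 (edgeR adjusted p = 0.36) and Cyp2j12 at 0.36 (0.49). The 9 markers of astrocytes, oligodendrocytes and microglia summed to 4827 to 8009 CPM in Stim, 3845 to 5479 in Con and 3484 to 4027 in T0, the 6 neuron markers to 5698 to 7598, 5602 to 6724 and 6308 to 7236, and the 6 choroid plexus markers to 10.4 to 982, 115 to 1212 and 5.40 to 624. All genes of these lists were detected. The part of cell makeup in the Cyp2 values was not tested.

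The Stim effect differed between the sexes in cortex for Cyp2d22, 1 of 6 members where 5.08% of all genes were called. Its Stim M cortices ran from 41.8 to 45.6 CPM and its Con M cortices from 32.5 to 40.3. In F the Stim cortices ran from 28.2 to 36.7 and the Con cortices from 35.1 to 37.5. The M difference was 0.31 (edgeR adjusted p = 0.013), the F difference -0.13, and M minus F 0.44 (SE 0.12, edgeR adjusted p = 0.032). In cortex this M minus F test was not repeated in other settings, without single libraries or with the nuclear share. Within M 2 of 6 members were called, Cyp2d22 and Cyp2j9, where 16.6% of all genes were, and within F 0 by edgeR, where 0.433% were. Within F 2 members and 2005 of all 16609 genes had an unadjusted p under 0.05.

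The partners on which Cyp2 enzymes depend were read from 5 lists. In liver, Stim against Con, where 1.95% of all genes were called, 1 of 7 electron transfer genes fell: Pgrmc1, a heme-binding partner of P450 enzymes, was at 700 ± 279 CPM in Stim and 1454 ± 473 in Con, a difference of -1.03 (SE 0.23, edgeR adjusted p = 0.022). The list's median was -0.15, against 0.08 over all genes. Of 13 genes of heme synthesis and breakdown 0 were called by edgeR, with 4 at an unadjusted p under 0.05 and a median of -0.23. In this comparison 2383 of all 13604 genes had an unadjusted p under 0.05. Of 19 liver and xenobiotic transcription factors 1 rose, Cebpb, at 189 ± 71.5 CPM against 108 ± 21.6, by 0.80 (edgeR adjusted p = 0.035). Of 10 regulators of sex-biased liver genes and of 15 other P450 and epoxide hydrolase genes of lipid metabolism 0 were called by edgeR in that comparison, with 1 and 5 at an unadjusted p under 0.05. In Stim against T0, where 1.34% of all genes were called, 2 of these 15 P450 and epoxide hydrolase genes fell: Cyp8b1, a bile acid hydroxylase, at 16.3 ± 12.8 CPM against 139 ± 80.7, with a log2 difference of -2.92 (edgeR adjusted p = 0.022), and Cyp7b1 at -1.07 (0.037).

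Between M and F liver, where 6.4% of all genes were called, 0 of 7 electron transfer genes, 0 of 13 heme genes and 0 of 19 transcription factors were called by edgeR. Of these lists 0, 1 and 3 genes had an unadjusted p under 0.05, and 2405 of all 13604 genes did. Among the 10 regulators Bcl6 was higher in M, at 24.8 against 7.80 CPM, and Cux2 far higher in F, at 76.9 ± 39.3 against 0.400 ± 0.286, as were Trim24 (-1.45) and Tox (-1.12). Bcl6 and Cux2 encode repressors known for their opposite sex bias in mouse liver. In kidney, 10 of 13 heme genes were higher in M, where 46.8% of all genes were called in either direction, with a list median of 0.57 against -0.01 over all genes, including Cpox at 1.27, Hmox1 at 1.08 and Blvra at 0.87. Of 7 electron transfer genes 5 were higher in M and 1 in F. Cyb5a, cytochrome b5, was at 949 ± 245 CPM in M and 335 ± 32.8 in F, Cyb5r3 differed by 0.97 and Por, the P450 reductase, by 0.32. Pgrmc1 was the 1 higher in F, at -0.32. In kidney Stim against Con called 0 genes of these 5 lists by edgeR, with 0 of 7 electron transfer, 0 of 13 heme, 1 of 18 transcription factor, 1 of 8 regulator and 6 of 14 lipid P450 genes at an unadjusted p under 0.05. Over all 16005 genes 1353 had such a p.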

How the data were processed

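Members, gene lists and tests were chosen with earlier results of these data known. Gene-level counts were deposited by the authors as 1 table, and 0 of its columns lack a sample. Per the submitters' processing notes, reads were aligned with STAR 2.7.10 to mm10 (GRCm38), and DESeq2 and DESeq are also named. The annotation, strand setting and treatment of multi-mapping reads are not given in the sources used here, nor is what the word "corrected" in the table's first line refers to. Per the labels' protocols, poly(A) libraries were made from total RNA with a NEBNext Ultra II kit. From the counts, each tissue was fitted by itself with edgeR 4.0.16 (R 4.3.3): filterByExpr with a minimum count of 10, TMM scaling and a robust quasi-likelihood fit with treatment and sex letter. Benjamini-Hochberg adjustment ran over all genes tested in the tissue, and an adjusted p under 0.05 was called. Medians, lists and p-values refer to this fit unless another is named. Sex-specific differences used 1 mean per treatment and sex. Liver and kidney of Stim and Con were fitted jointly. In that fit the animal names of the labels pair 16 animals, and the correlation of their deviations ran from -0.15 to 0.49 with a mean of 0.06. RPKM used GENCODE vM21 exon lengths. Promoters came from a RefSeq table, identities from blastn 2.17.0+. DESeq2 1.42.0, limma 3.58.1, other filters and scaling, and leaving out libraries were alternatives, and the edgeR steps were tested on simulated data. Named members were those called for Stim against Con, the 6 highest in Con per tissue, and those with the smallest p in the other comparisons.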

Additional observations from a re-analysis of the deposited data

Results flagged for a closer look

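In 8 of 120 groups of 4 libraries, 1 library lay apart from the other 3 on the log scale beyond Dixon's critical value; chance gives about 1 in 20 groups. A5DA gave 3 of these: in Stim M liver Cyp2c37 was at 20.1 CPM against 302 to 451 in the others and Cyp2e1 at 2536 against 6302 to 6789, and in Stim M kidney Cyp2j11 was at 86.0 against 223 to 236. T0_7 gave 2, in T0 M liver: Cyp2a22 at 0.801 CPM against 3.94 to 5.28, and Cyp2d10 at 737 against 969 to 999. Cyp2a4 in Stim F kidney was at 224 CPM in B51B against 336 to 365. Cyp2j6 in cortex was at 17.5 CPM in the Con female 983B against 21.5 to 22.3, and at 17.4 in the T0 male T0_5 against 15.9 to 16.0.

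The M minus F difference was not the same in liver and kidney for 7 members, by the joint edgeR test, given as liver minus kidney on the log2 scale. These were Cyp2a4 at -7.20 (adjusted p = 1.3e-07), Cyp2b10 at -9.83 (9.3e-10), Cyp2c69 at -7.85 (5.7e-10), Cyp2d22 at 0.83 (0.033), Cyp2d9 at 2.80 (7.3e-06), Cyp2e1 at -4.59 (1.4e-10) and Cyp2u1 at 3.03 (2.4e-07). Cyp2b10 was at or near 0 CPM in every F kidney, and Cyp2c69 was at most 2.09 CPM in every kidney. In cortex the Stim effect of Cyp2d22 was 0.44 higher in M than in F (edgeR adjusted p = 0.032), a test not repeated in other settings.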

How the results depend on the processing

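Counts of called members that moved by over 1.5 times were as follows. With sex crossed with treatment, 1 for liver Stim against Con, 1 for liver Con against T0 (Cyp2b9), 1 for kidney Stim against Con and 1 for WAT Stim against T0. Without the filter, liver gave 1 for Stim against Con, 0 for Stim against T0 and 4 for the sex difference of the Stim effect, and cortex 1 for Con against T0. Without the sex covariate, 1 and 0 for the 2 liver Stim comparisons, 0 for kidney and 1 for cortex Con against T0. With RLE factors, 0 for liver Stim against T0. On the Stim and Con groups alone, 0 in liver and 0 in cortex; in F alone 0 in both, in M alone 2 in cortex. DESeq2 gave 2 for liver Stim against T0, 1 for the liver sex difference, 2 for kidney Stim against Con and 2 for Con against T0, 2, 1, 2 and 8 for WAT Stim against Con, Con against T0, Stim against T0 and M against F, and 2 for cortex Stim against Con. Without the libraries high in epididymis or proximal tubule markers WAT gave 1 for Con against T0, 1 for Stim against T0 and, without the 3 epididymis libraries, 3 for M against F. With the nuclear share, whose Stim and T0 ranges did not overlap, the cortex counts of the treatment comparisons over both sexes were 0. The cortex sex difference of the Stim effect was not refitted. The liver and kidney difference between the sexes, 9 of 39 members in edgeR, gave 14 with limma. The 39 include members below the low-count filter in liver or in kidney. The cause of these moves was not tested, and the counts under DESeq2 were not set against its shares over all genes.

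Leaving out 1 library, liver counts ran from 0 to 4 (Stim against Con), 0 to 0 (Con against T0), 0 to 2 (Stim against T0), 15 to 19 (M against F) and 0 to 1 (sex difference). Kidney gave 0 to 1, 1 to 1, 0 to 0, 15 to 16 and 0 to 0, WAT 0 to 0, 0 to 0, 0 to 1 and 3 to 6, cortex 0 to 2, 0 to 2, 4 to 4 and 0 to 0, and the joint fit 0 to 1 for the Stim effect and 6 to 11 of 39 for sex. With the animal as a replicate block, the joint fit called 0 of 39 members for the Stim effect and 9 for sex, the same counts as without it, with Cyp2d22 lost. These joint counts include members below the low-count filter in liver or in kidney.

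Uncalled differences turned sign in 6 fits: without the sex covariate Cyp2a4 liver Con minus T0 was -0.24, Cyp2c69 liver Stim minus T0 -0.50, Cyp2e1 kidney Con minus T0 0.14 and Cyp2s1 WAT Con minus T0 0.10; without 7 WAT libraries high in markers of other tissues, 6 of them Stim, Cyp2e1 WAT Stim minus T0 was -0.12 on 2 Stim libraries; without T0_2 Cyp2s1 cortex M minus F was -0.011. Among single members, 2061 leave-one-out values kept side and sign, 111 lost a call and 10 gained one; in other settings 599, 34 and 10. Groups of 4 per sex and tissue limit the tests within 1 sex.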
